A study of Mus musculus with 2 samples.

Results

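Germinal center B cells that held IgM and IgG heavy chain transcripts side by side were set against cells of a single heavy chain class. The cells were sorted from the spleens of 8-week-old C57BL/6J mice immunized with sheep red blood cells (SRBC) and profiled as 2 droplet libraries of this 1 group, with unique molecular identifiers (UMIs) counting captured RNA molecules. No mutation, drug or untreated group is part of the design. Nothing in the labels ties each library to its own mice, so p-values cannot be read as variation between mice. With library fitted as a block, they rest on how class differences varied between these libraries, with spread shared across genes. That variation may be technical. A member had at least 500 genes, at least 3000 UMIs, at most 20% mitochondrial UMIs and at least 10 UMIs summed over Ighm, Ighd, Ighg1, Ighg2b, Ighg2c and Ighg3, of which the Ighg genes made up more than 20% and less than 80%. This rule found 1095 mixed cells among 16633 deposited barcodes, or among 6877 cells that passed its other limits. Pure cells had an IgG share of at most 5% (1900 pure IgM cells) or at least 95% (2271 pure IgG cells).

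A naive B cell makes IgM and IgD from the same primary transcript of the heavy chain locus. Class switch recombination deletes the DNA between the Ighm switch region and that of a downstream constant gene, after which the rearranged allele can make IgG but no longer IgM. Transcripts of both classes in 1 barcode can also come from germline transcripts of an unswitched constant gene, from Ighm RNA that outlives the switch, from free RNA in the droplet or from 2 cells in 1 droplet.

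The 6 genes lie in 1 cluster on chromosome 12 of mm10, all on the minus strand and in the order Ighm, Ighd, Ighg3, Ighg1, Ighg2b, Ighg2c. Ighm spans chr12:113418558-113422730 and Ighg1 spans chr12:113325240-113330523 in GENCODE M21. The last 60 coding bases of the membrane forms are shown to compare the genes over 1 stretch. The libraries read 3′ ends, and where reads fell in these genes was not examined. They run 5′ to 3′ on the coding strand, with capitals in the IgG genes at positions unlike Ighg1.
Ighm: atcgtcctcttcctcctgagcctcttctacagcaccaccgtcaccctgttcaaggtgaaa
Ighg1: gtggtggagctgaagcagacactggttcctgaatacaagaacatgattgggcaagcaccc
Ighg3: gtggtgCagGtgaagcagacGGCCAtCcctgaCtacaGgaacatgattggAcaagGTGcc
Ighg2b: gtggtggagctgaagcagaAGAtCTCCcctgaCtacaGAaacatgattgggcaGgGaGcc
Ighm differed from Ighg1 at 43 of the 60 positions, so IgM and IgG are unlike over this stretch. Ighg3 differed at 14 and Ighg2b at 13. Ighg2c had the same 60 bases as Ighg2b, so reads from this stretch could not tell them apart. How counts split between Ighg2b and Ighg2c is uncertain.

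The libraries held 75121538 UMIs over 8765 barcodes and 61874342 UMIs over 7868 barcodes, and 4839 and 3230 barcodes passed the limits on genes, UMIs and mitochondrial share. They shared 22 barcode sequences, and 0 of these were mixed in both. The B cell genes Cd79a and Ms4a1 were detected in 100% of the mixed, pure IgM and pure IgG cells matched below. The germinal center gene Mef2b was detected in 86.8% and 88.6% of mixed cells, and Cd3e, which marks T cells, and S100a8, which marks neutrophils, were at 0 UMIs in all 3 classes. Xist was detected in 98.9% and 98.5% of cells with at least 10 heavy chain UMIs, so a mix of sexes could not be used to find droplets with 2 cells.

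Most cells sat at either end of the IgG share. Mixed cells made up 16.4% of 4085 eligible cells in library 1 (95% exact binomial interval 15.3% to 17.5%) and 15.3% of 2792 in library 2 (13.9% to 16.6%), a mean of 15.8% ± 0.791 (SD, n = 2). These intervals, like all below, cover counting error only. Within the mixed range, shares of 20% to 40% held 184 and 108 cells, 40% to 60% held 160 and 119, and 60% to 80% held 325 and 199. The members thus lay more often on the IgG side, with 415 and 264 cells at an IgG share of 50% or more and 254 and 162 below it.

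**Figure D1:**
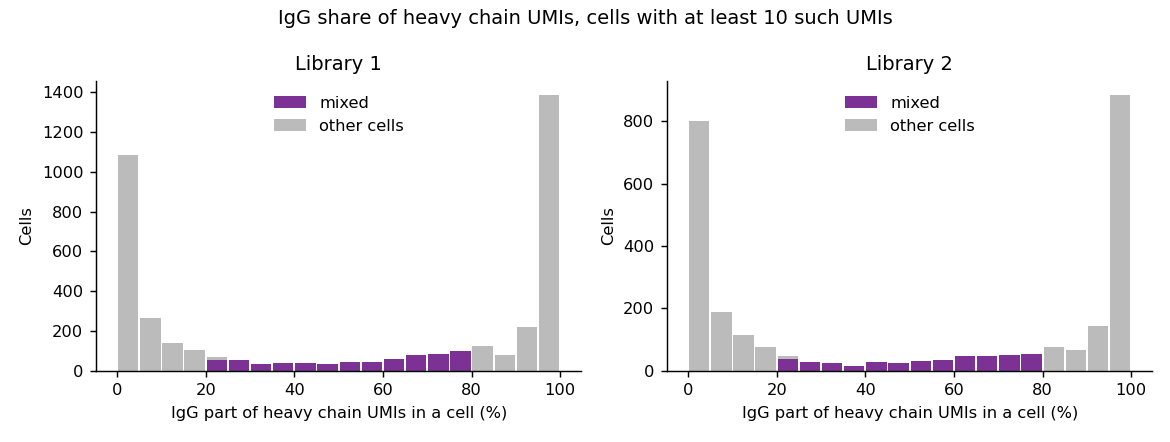
Number of cells (vertical axis) by the IgG part of heavy chain UMIs in steps of 5 percentage points (horizontal axis), with mixed cells in purple and other eligible cells in gray. The outermost bars stand far above the others in both libraries, and the 669 and 426 mixed cells fill a low, continuous range between them.

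The rule draws lines through this continuous range. Just inside its lower limit, 62 and 49 cells had a share of 20% to 25%, at median depths of 13088 and 10684 UMIs. Just outside it, 109 and 84 cells had a share of 15% to 20%, at medians of 9645 and 9594 UMIs. At the upper limit, cells at 75% to 80% numbered 101 and 53 (medians 9776 and 11645 UMIs), against 126 and 77 at 80% to 85% (8736 and 10317 UMIs).

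Members carried a median of 29 heavy chain UMIs in each library, against 40 and 46 in pure IgM cells and 25 and 26 in pure IgG cells. The less abundant of the IgM and IgG sides had a median of 9 and 10 UMIs in members, with quartiles of 6 and 17 in both libraries. It had a median of 0 in both pure classes, as their definition makes likely. A free-RNA level could not be read from other cell types, since only 2 and 1 cells that passed the limits had no UMI of Cd79a, Cd79b or Ms4a1.

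The members were deeper than the pure cells. Median depth was 10938 and 10796 UMIs in mixed cells, against 8888 and 9411 in pure IgM and 9567 and 10185 in pure IgG cells. In library 1 the mixed share was 13.6%, 13.2%, 15.9%, 17.9% and 21.3% over 5 equal steps of rising UMI count, and in library 2 it was 11.6%, 13.6%, 16.7%, 18.1% and 16.3%. Over steps of rising heavy chain UMIs, from 10 to 19 up to 80 or more, the share lay between 15.8% and 17.4% in library 1 and between 11.9% and 16.8% in library 2, with no steady rise. The part of depth in the mixed share was not tested.

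Ighg1, the IgG class that interleukin-4 favors, dominated the IgG side of members. It supplied 83.1% and 78.4% of their Ighg UMIs, against 49.1% and 50.1% in pure IgM cells and 82.2% and 84.1% in pure IgG cells. Ighg2b gave 11.7% and 14.3% in members, and Ighg2c gave 0.454% and 1.01%. Ighg3, the first IgG gene downstream of Ighm and Ighd, supplied 4.72% (4.37% to 5.08%) and 6.24% (5.75% to 6.75%) of Ighg UMIs in members. It supplied 36.3% and 38.2% of the 761 and 722 Ighg UMIs in pure IgM cells, but 2.23% and 2.18% in pure IgG cells. In cells at an IgG share of 5% to 20% it was still 18.4% and 18.6%. Ighg3 was thus a larger part of the few IgG transcripts of pure IgM cells than of those of members, in which Ighg1 led as in pure IgG cells. In number, Ighg3 UMIs were 276 and 276 in 1089 and 811 pure IgM cells, against 665 and 579 in 669 and 426 members.

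Ighd, which naive B cells co-express with Ighm, took a larger part of the IgM side in members. It was 2.50% and 2.21% of Ighm and Ighd UMIs together in mixed cells, against 1.26% and 1.15% in pure IgM cells. It was 2.39% and 2.50% in cells at an IgG share of 80% to 95%, from 34 of 1420 and 25 of 1000 UMIs. In pure IgG cells it was 1.95% and 3.15%, from only 7 of 359 and 8 of 254 UMIs. On these small counts, the larger part was not limited to members. These heavy chain values describe cells chosen on the same genes and carry no test.

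For measures the rule did not use, each mixed cell was matched on total UMIs to 1 pure IgM and 1 pure IgG cell of its library, which gave 659 and 420 trios and left out 10 and 6 members. Median depth was then 10823 and 10772 UMIs in mixed cells, against 10809 and 10758 in pure IgM and 10829 and 10756 in pure IgG cells. The median mitochondrial share still differed, at 13.0% and 13.9% in mixed cells against 10.5% and 10.5% in pure IgM and 12.8% and 13.1% in pure IgG cells. With 2 libraries, an exact test over libraries cannot give a two-sided p below 0.5, so these measures are given as values with counting intervals.

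Members were found more often among cells with high doublet scores. Scrublet, which scores each cell by its likeness to sums of 2 cells, was run without immunoglobulin genes and called 0 doublets in each library, so its threshold did not work here and only the ranking of scores was used. The highest 6% of scores held 13.1% (10.6% to 15.9%) and 11.2% (8.34% to 14.6%) of mixed cells, against 4.70% and 5.71% of pure IgM cells and 4.10% and 3.33% of pure IgG cells. The intervals of the mixed cells did not overlap those of pure IgG cells in either library, and overlapped those of pure IgM cells by a narrow margin in library 2, where the pure IgM interval reached 8.38%. Mixed minus pooled pure cells was 7.66 percentage points ± 1.40 (SD, n = 2), and 1.98 at a mitochondrial limit of 10%, where library 2 gave -0.391. Outside the highest 6% lay 86.9% and 88.8% of the matched members.

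Other measures of 2 cells in 1 droplet did not set members apart from both pure classes. What share of such droplets each measure could show was not tested. A B cell normally keeps 1 light chain type, and mixed light chains (lambda above 20% and below 80% of at least 10 light chain UMIs) were found in 14.4% and 13.8% of mixed cells, against 16.0% and 15.6% of pure IgM cells and 9.01% and 10.3% of pure IgG cells. The intervals of mixed and pure IgG cells did not overlap in library 1 (11.8% to 17.3% against 6.93% to 11.5%) and overlapped in library 2. The difference from pooled pure cells was 1.37 percentage points ± 0.679 (SD, n = 2), and -0.413 at a mitochondrial limit of 10%. At 3000 UMIs per cell, to which every cell was thinned with none left out, the median number of genes was 1322 and 1337 in mixed cells, against 1311 and 1324 in pure IgM and 1327 and 1345.5 in pure IgG cells. Mixed minus pooled pure cells was 1.5 genes ± 2.12 (SD, n = 2), less than the spread between libraries, and its sign turned under other limits.

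Cxcr4, a dark zone receptor, was detected together with the light zone genes Cd83 or Cd86 in 9.71% and 10.0% of thinned mixed cells, against 11.5% and 11.4% of pure IgM and 9.86% and 8.10% of pure IgG cells. Among cells with at least 10 Ighg UMIs, no single IgG subclass reached 80% in 7.68% and 3.50% of mixed cells, against 6.53% and 6.43% of pure IgG cells. For the zone genes and the subclasses, the intervals of mixed and pure cells overlapped. Lambda took at least 80% of light chain UMIs in 5 of 655 and 7 of 420 members, against 21 of 657 and 16 of 418 pure IgM cells and 10 of 655 and 7 of 418 pure IgG cells. In pooled pure cells this was 2.36% and 2.75%, so few pairs of cells would join kappa with lambda. Mixed light chains were already found in 12.5% and 12.9% of pooled pure cells.

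**Figure D2:**
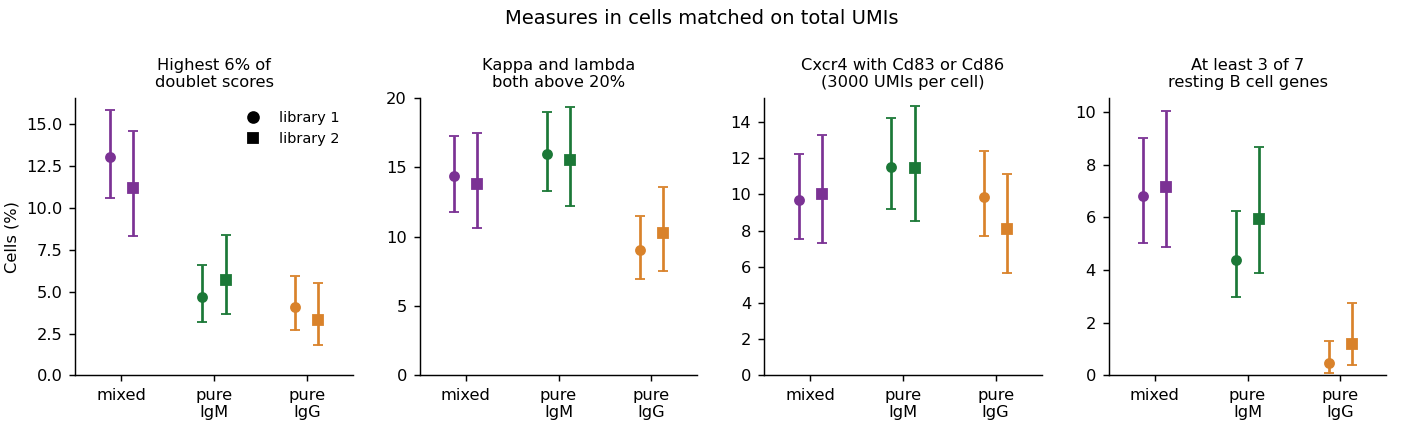
Share of matched cells (vertical axis, %) that met each of 4 measures, for mixed, pure IgM and pure IgG cells, with circles for library 1, squares for library 2 and 95% exact binomial intervals. Mixed cells stand highest for doublet score, at 13.1% and 11.2%, while for light chains and for zone genes they lie within the range of intervals of the pure classes.

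A small group of members held genes of resting B cells next to genes of the germinal center. Counted were 7 genes of resting B cells, among them Ccr7, Klf2, S1pr1, Bcl2, Cd38 and Ccr6, and 8 of the germinal center, among them Bcl6, Mef2b, S1pr2, Rgs13, Gcsam, Mybl1 and Nuggc. This count was set up after the values of these genes had been seen, and it carries no test. At least 3 of the 7 resting genes were detected in 45 of 659 and 30 of 420 matched mixed cells (6.83% and 7.14%), against 29 and 25 pure IgM cells (4.40% and 5.95%) and 3 and 5 pure IgG cells (0.455% and 1.19%).

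At full depth these mixed cells carried more germinal center genes than such pure IgM cells. In these mixed cells the median number of germinal center genes was 6 in both libraries, the same as in the other mixed cells, whereas it was 3 in the pure IgM cells with resting genes and 6 in the other pure IgM cells. At least 5 germinal center genes beside at least 3 resting genes were found in 31 and 21 mixed cells (4.70% and 5.0%), against 7 and 8 pure IgM cells (1.06% and 1.90%) and 0 and 3 pure IgG cells. The 0 of 659 allows a share of up to 0.455%, taken as 3 counts of the total, and its exact interval reaches 0.558%.

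The members with at least 3 resting genes were also deep, with medians of 17443 and 14784 UMIs, against 9242 and 9819 in the pure IgM cells with resting genes. Depth raises the number of genes found. With every cell thinned to 3000 UMIs, at least 2 resting genes were found in 31 and 21 mixed cells (4.70% and 5.0%), against 25 and 21 pure IgM cells (3.79% and 5.0%) and 5 and 4 pure IgG cells. These thinned mixed cells had medians of 2 and 1 germinal center genes, against 1 and 2 in such pure IgM cells, and the other cells of both classes had a median of 3. The difference from pure IgM cells in median germinal center genes was thus not seen at equal depth. The limits were lower there and fewer genes were found, so a small difference could be missed. At least 2 resting and at least 3 germinal center genes were found in 11 and 9 thinned mixed cells (1.67% and 2.14%), against 4 and 4 pure IgM cells and 4 and 2 pure IgG cells, and the intervals overlapped. Of the mixed cells with at least 3 resting genes, 24.4% and 20% were in the highest 6% of doublet scores, against 12.2% and 10.5% of the other mixed cells. Their Ighd part of the IgM side was 7.61% and 4.56%, against 1.68% and 1.86% in the other mixed cells. Pure IgM cells with at least 3 resting genes also had a larger Ighd part, at 4.33% and 2.26%, against 1.07% and 0.943% in other pure IgM cells.

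**Figure D3:**
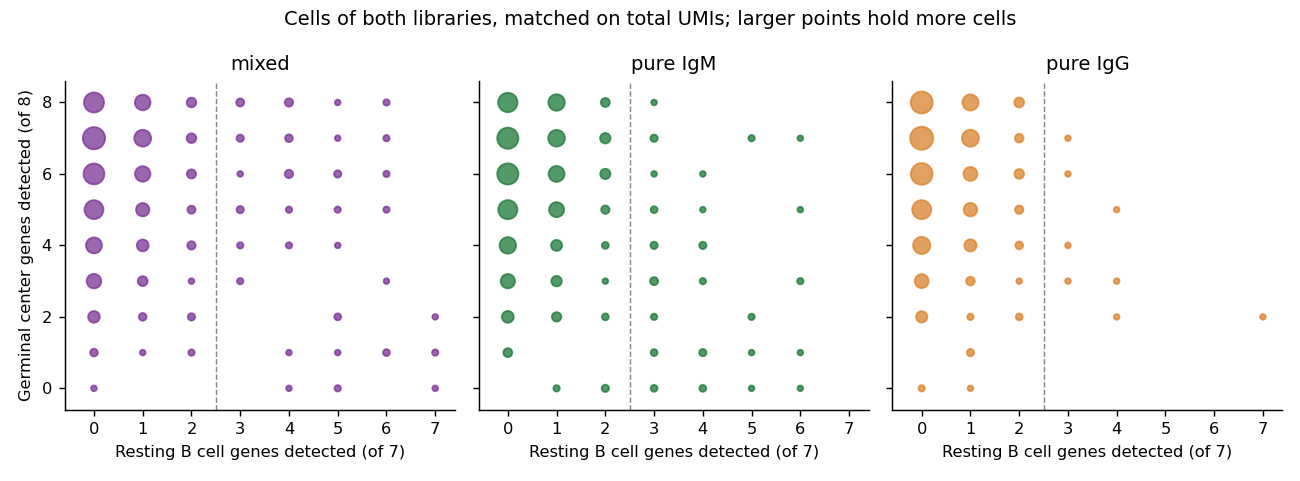
Number of germinal center genes detected (vertical axis, of 8) by number of resting B cell genes detected (horizontal axis, of 7) in matched cells of both libraries, with larger points for more cells. To the right of the dashed line, at 3 or more resting genes, mixed cells extend up to 8 germinal center genes. So does 1 pure IgM cell of library 1, and pure IgG cells are few. Genes were counted at full depth, at which these mixed cells held more UMIs than such pure IgM cells.

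Gene expression was then compared on UMI sums per class and library, without immunoglobulin genes, by edgeR's quasi-likelihood test with library as a block and Benjamini-Hochberg adjustment over all genes tested. Levels are CPM, the usual scaling of counts to a common library size, of the summed non-immunoglobulin UMIs. The 3 comparisons share the same mixed cells, and the pooled one shares its pure cells with the other 2, so they are not independent of one another.

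Against pooled pure cells, mixed cells had lower levels of mitosis genes and higher levels of a few resting B cell genes. Of 10547 genes tested, 389 passed an adjusted p of 0.05 (3.69%), 115 higher and 274 lower. All 389 had the same sign in both libraries, as passing a test on these same libraries makes likely. The count depended on the model. DESeq2 called 51 of the 1550 genes it adjusted, and edgeR called 2 without the library block.

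The decrease took in nearly the whole list of G2/M phase genes, which are switched on for chromosome condensation and division. Of its 30 genes, 29 fell, against 2.6% of all genes called lower, and its median log2 fold change was -0.28, against -0.00 over all genes. Summed over the list, mixed cells had 8619 and 8848 CPM, against 10264 and 10142 CPM in pure IgM cells and 10302 and 10301 CPM in pure IgG cells. Nusap1, which binds spindle microtubules, had 121 and 124 CPM in mixed cells, against 164 and 167 CPM in pooled pure cells. It fell by 0.43 (SE 0.0539, adjusted p = 7.8e-13 by edgeR). Cenpf, a kinetochore protein, had 295 and 310 CPM in mixed cells, against 382 and 381 CPM in pooled pure cells, with a log2 fold change of -0.34. The topoisomerase Top2a had 723 and 658 CPM in mixed cells, against 842 and 817 CPM in pooled pure cells, with a log2 fold change of -0.26. The mixed cells lay below the pure cells in both libraries for these genes, and each difference was larger than the spread between libraries.

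Among the genes with the largest decreases, Kpna2, an importin that carries proteins into the nucleus, had 73.3 and 107 CPM in mixed cells, against 108 and 143 CPM in pooled pure cells, with a log2 fold change of -0.49. Ect2, a member of the G2/M list that starts cytokinesis, had 27.2 and 32.3 CPM in mixed cells, against 38.4 and 44.4 CPM in pooled pure cells, with a log2 fold change of -0.48. The replication-dependent histone gene Hist1h2ab fell by 0.51. Of 25 S phase genes only Cdc45 fell, with a list median of -0.08. DESeq2 called 11 of the 30 G2/M genes lower, of the 21 to which it gave an adjusted p. Without the library block edgeR called 0 of 30, with 21 lower at an unadjusted p under 0.05. Without UMI matching 7 fell, and at a mitochondrial limit of 10% 7 fell against pooled pure cells. At that limit edgeR called 0 of 30 against pure IgG cells, with 4 lower at an unadjusted p under 0.05. The list median stayed below 0 in each of these settings.

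Genes of naive and memory B cells rose. Klf2, a transcription factor of quiescence and exit from lymphoid tissue, had 46.4 and 76.5 CPM in mixed cells, against 23.3 and 30.7 CPM in pooled pure cells, and rose by 1.15 on the log2 scale (SE 0.0846, adjusted p = 3.4e-38 by edgeR). Klf2 was detected in 21.9% and 23.8% of mixed cells, against 18.97% and 18.57% of pure IgM and 16.7% and 17.1% of pure IgG cells. The mixed cells with at least 3 resting genes, which Klf2 helps to define, held 69.2% and 75.2% of its UMIs in mixed cells. Such pure IgM cells held 40.4% and 56.95% of the Klf2 UMIs of their class. S100a10 rose by 2.40 and Plac8 by 1.92 on the log2 scale. Ccr7, the chemokine receptor for T cell zones, had 5.57 and 5.55 CPM in mixed cells, against 0.841 and 1.88 CPM in pooled pure cells. Of the 15 genes of the naive or memory B list, 8 rose and 1, Fcmr, fell, with a list median of 0.53, against 1.09% of all genes called higher. DESeq2 gave only 2 of the 15 an adjusted p and called 0, with 5 higher and 1 lower at an unadjusted p under 0.05.

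The UMIs of Plac8 and S100a10 sat in few cells. Plac8 was detected in 6.22% and 9.52% of mixed cells, against 5.46% and 6.67% of pure IgM cells and 1.21% and 1.90% of pure IgG cells. The mixed cells with at least 3 resting genes held 94.8% and 73.6% of its UMIs in mixed cells. S100a10 was detected in 5.46% and 6.67% of mixed cells, against 2.58% and 2.86% of pure IgM cells and 0.455% and 1.19% of pure IgG cells. The same members held 97.2% and 90.4% of its UMIs in mixed cells. Pure IgM cells with at least 3 resting genes held 86.4% and 83.6% of the S100a10 UMIs of their class. They also held 68.9% and 93.4% of its Plac8 UMIs. Neither gene is part of the definition of these cells. The 7 genes that define them all belong to the naive or memory B list, so leaving such cells out lowers that list by construction and says nothing about it. With such cells left out of every class, an alternative chosen after seeing the data, 21 of 30 G2/M genes still fell, and 119 of the 389 genes kept their call and sign.

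**Figure D4:**
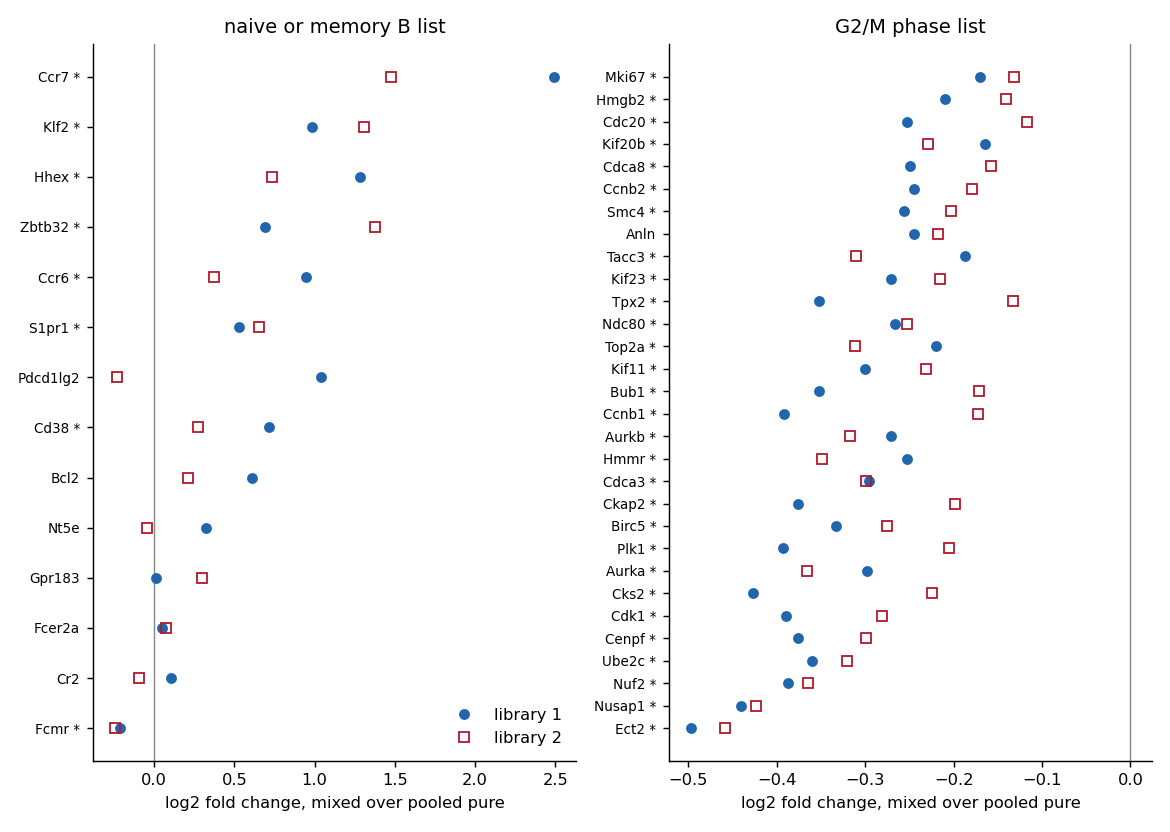
Log2 fold change of mixed over pooled pure cells (horizontal axis) for genes of the naive or memory B list and of the G2/M phase list, with filled circles for library 1, open squares for library 2 and an asterisk for genes that passed the test. All 30 G2/M genes lie below 0 in both libraries, while the naive or memory B genes drawn spread up to 2.49 for Ccr7 in library 1.

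Of 15 germinal center B cell genes 2 fell and 0 rose by edgeR, with a list median of -0.05, and DESeq2 called 0 of the 14 it adjusted, with 1 lower at an unadjusted p under 0.05. Rgs13, which regulates chemokine signaling and was 1 of these 2, had 140 and 179 CPM in mixed cells, against 194 and 193 CPM in pooled pure cells, and fell by 0.30. Of 14 tested plasma cell genes 4 fell: Xbp1, Mzb1, Jchain and Slamf7. Mzb1, an endoplasmic reticulum chaperone of antibody assembly, had 489 and 606 CPM in mixed cells, against 597 and 701 CPM in pooled pure cells. Against pure IgG cells alone, 2 of the 14 plasma cell genes fell, Jchain and Slamf7. Rgs13 (log2 fold change -0.08), Xbp1 (-0.13) and Mzb1 (-0.07) did not pass there.

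Genes of other lineages were summed as well. Over 9 measured T cell genes, mixed cells had 1.53 and 1.67 CPM, against 1.70 and 1.90 CPM in pure IgM and 1.55 and 2.86 CPM in pure IgG cells. Over 9 macrophage genes mixed cells had 8.06 and 8.67 CPM, against 6.36 and 5.35 CPM in pure IgM and 4.86 and 15.8 CPM in pure IgG cells. Neutrophil, natural killer and platelet genes summed to less than 1 CPM in every class. Other lists stood higher in all 3 classes. Over 6 stromal genes mixed cells had 80.5 and 85.6 CPM, against 83.7 and 83.2 CPM in pure IgM and 76.4 and 89.2 CPM in pure IgG cells, nearly all of it from Cr1l. Over 7 dendritic cell genes mixed cells had 49.7 and 57.4 CPM, against 52.0 and 58.9 CPM in pure IgM and 50.7 and 60.8 CPM in pure IgG cells, with Flt3 and Bst2 as the main sources. Over 7 erythroid genes mixed cells had 38.9 and 36.7 CPM, against 44.7 and 46.8 CPM in pure IgM and 50.6 and 36.0 CPM in pure IgG cells. The globin gene Hbb-bt had 32.5 and 32.6 CPM in mixed cells, against 42.9 and 35.2 CPM in pooled pure cells, and fell by 0.28 (adjusted p = 0.047 by edgeR). The part of other cells' RNA in these results was not tested.

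Against pure IgM cells, mixed cells were higher in Slpi, Tox and part of the naive or memory B list, and lower in Cd72 and other surface receptors. Here 948 of 10317 genes passed (9.19%), 279 higher (2.7%) and 669 lower (6.48%), with 250 by DESeq2, 4 without the library block and 320 when cells were matched on mitochondrial share as well. Slpi, a secreted protease inhibitor, had 89.5 and 105 CPM in mixed cells, against 38.6 and 40.7 CPM in pure IgM cells. It rose by 1.28 on the log2 scale (SE 0.0772, edgeR adjusted p = 2.1e-57), and passed by DESeq2 and without the block as well. Tox, a nuclear factor of lymphocytes, had 24.2 and 22.0 CPM in mixed cells, against 11.7 and 10.6 CPM in pure IgM cells, and rose by 1.05. The actin-bundling gene Fscn1 rose by 1.37 and Ccnd2, a D-type cyclin, by 0.81, but Ccnd2 had a log2 fold change of -0.30 without the highest 20% of UMIs.

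The lower genes included receptors of the B cell surface. Cd72, an inhibitory co-receptor, had 78.2 and 89.7 CPM in mixed cells, against 157 and 154 CPM in pure IgM cells, and fell by 0.90 (SE 0.062, adjusted p = 3.4e-44 by edgeR). Lmo4, a LIM-domain cofactor, had 112 and 103 CPM in mixed cells, against 194 and 150 CPM in pure IgM cells. The tetraspanin Cd9 fell by 1.06, the scavenger receptor Cd36 by 0.93 and Fcmr, the Fc receptor for IgM, by 0.57. The other 8 of the 12 largest decreases lay between 0.69 and 0.95 on the log2 scale.

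Of the 15 naive or memory B genes 5 rose and 1, Fcmr, fell, with a list median of 0.15. S100a10 rose by 1.80, Plac8 by 0.98 and Klf2 by 0.83 on the log2 scale. Plac8 had a log2 fold change of -0.12 without the highest 20% of UMIs, and Klf2 one of -0.079 in cells thinned to 3000 UMIs. Of 15 germinal center B cell genes 1 rose and 5 fell, with a list median of 0.02.

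Other gene lists were counted in the same way. Of 14 cholesterol synthesis genes 7 rose, with a list median of 0.21. Insig1, which holds back the activation of sterol synthesis genes, had 56.3 and 48.5 CPM in mixed cells, against 40.8 and 41.2 CPM in pure IgM cells, and rose by 0.37. Of 10 genes of MHC class II presentation 6 fell, and H2-Aa, a chain of the I-A molecule, fell by 0.35. The transactivator of this pathway, Ciita, rose by 0.20. Of 30 G2/M genes 25 fell, with a list median of -0.27.

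Against pure IgG cells, mixed cells were higher in genes of naive and memory B cells. Here 419 of 10317 genes passed (4.06%), 212 higher (2.05%) and 207 lower (2.01%), with 66 by DESeq2, 5 without the library block and 74 without the cells with resting genes. Ly6d, a surface protein of B-lineage cells, had 128 and 174 CPM in mixed cells, against 48.6 and 77.2 CPM in pure IgG cells. It rose by 1.28 (SE 0.0658, edgeR adjusted p = 3.0e-80), and by 0.54, still passing, without the cells with resting genes. Foxp1, a transcription factor high in naive B cells, had 234 and 199 CPM in mixed cells, against 154 and 134 CPM in pure IgG cells, and rose by 0.59. Cd38, which mouse germinal center B cells lower, had 16.5 and 19.6 CPM in mixed cells, against 5.18 and 7.25 CPM in pure IgG cells. It rose by 1.56. Of the naive or memory B list 11 of 15 rose. DESeq2 gave 3 of the 15 an adjusted p and called 0, with 9 higher at an unadjusted p under 0.05.

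Batf, a transcription factor that class switching needs, was lower than in pure IgG cells. It had 34.1 and 51.8 CPM in mixed cells, against 47.9 and 71.8 CPM in pure IgG cells, and fell by 0.48 (SE 0.0858, adjusted p = 2.9e-06 by edgeR). Without the highest 20% of UMIs its log2 fold change was 0.0033. Socs3, an inhibitor of cytokine signaling, had 0.871 and 2.01 CPM in mixed cells, against 4.19 and 2.19 CPM in pure IgG cells, and fell by 1.34 (adjusted p = 0.025 by edgeR), with nearly all of the difference in library 1. Nfil3 had 5.99 and 9.22 CPM in mixed cells, against 10.3 and 16.4 CPM in pure IgG cells, and fell by 0.80. Lmo7 fell by 0.72 against each pure class. Gcsam, a germinal center signaling adapter, had 127 and 123 CPM in mixed cells, against 154 and 152 CPM in pure IgG cells. Of 15 germinal center B cell genes 2 rose and 4 fell, with a list median of -0.08. Of 30 G2/M genes 26 fell, with a list median of -0.27.

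Where mixed cells lay between the pure classes was read from 30 genes chosen in pure cells that had not entered the matched sets, 15 higher in IgG and 15 higher in IgM cells. The unused pure IgG cells were deeper, at medians of 8532 and 9834 UMIs, against 6833 and 7671 in the unused pure IgM cells. Between those unused pure cells 2523 of 9852 genes passed (25.6%), 1385 higher in IgG cells (14.1%) and 1138 lower (11.6%). Summed over the IgM-higher genes, mixed cells had 761 and 847 CPM, against 897 and 970 CPM in pure IgM and 414 and 451 CPM in pure IgG cells. They lay 28.2% and 23.7% of the way from pure IgM to pure IgG cells. Over the IgG-higher genes mixed cells had 918 and 1170 CPM, against 811 and 927 CPM in pure IgM and 1068 and 1162 CPM in pure IgG cells, at 41.7% and 103% of the way. The libraries thus differed on the IgG-higher genes. In the depth-matched sets all 15 IgM-higher genes kept their order between the pure classes in both libraries, but only 12 of the 15 IgG-higher genes did. The other 3 were C1qbp, 1110004E09Rik and Bcat1, so the position on the IgG-higher genes rests partly on genes that did not separate the matched pure cells. Of the single genes, 5 of 15 IgG-higher and 6 of 15 IgM-higher genes lay between the pure classes in both libraries, Slpi, Tox, Cd72, Ly6d and Foxp1 among them.

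Members that leaned to IgM or IgG differed on the IgM-higher genes. Cells with an IgG share below 50% had 983 and 1238 CPM over these genes, above the pure IgM cells, whereas cells at 50% or more had 609 and 612 CPM. The IgG-higher genes ran the other way to their name, with 935 and 1237 CPM in cells below 50% and 908 and 1134 CPM in cells at 50% or more. The resting B cell genes Plac8, Klf2 and Cd38 are among the 15 IgM-higher genes. In cells thinned to 3000 UMIs, the IgG-higher genes gave 33.6% and 37.2% of the UMIs of all 30 genes in matched pure IgM cells. This was 40.7% and 43.6% at an IgG share of 20% to 40%, then 41.8% and 50.3% at 40% to 60%, and 48.4% and 52.2% at 60% to 80%. Matched pure IgG cells reached 55.9% and 57.8%.

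**Figure D5:**
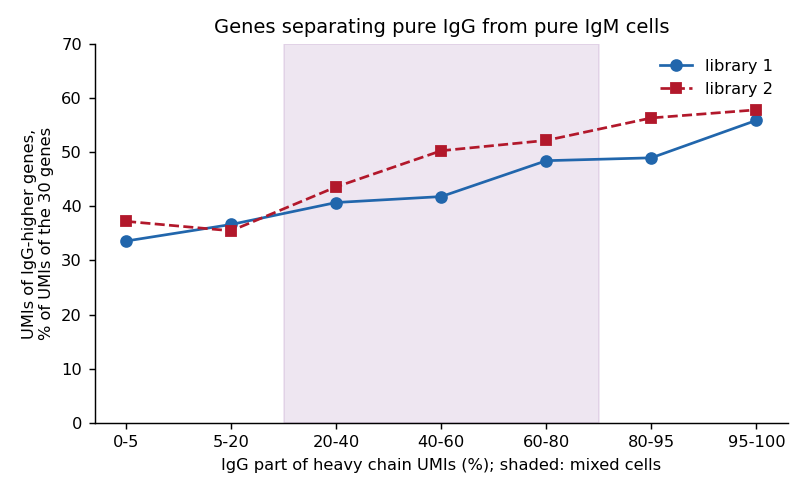
UMIs of 15 IgG-higher genes as a percentage of the UMIs of 30 separating genes (vertical axis) by IgG share of heavy chain UMIs (horizontal axis), in cells thinned to 3000 UMIs, with library 1 as circles and library 2 as squares. Mixed cells, in the shaded range, lie between 40.7% and 52.2%, above the pure IgM cells and below the pure IgG cells of each library.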

How the data were processed

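Expression was measured in 2 libraries of 1 group by 10x Genomics 3′ chemistry (version 3 kit, per the labels' protocols). The deposited values are raw counts of UMIs per gene and barcode, and the file headers name Cell Ranger 3.0.2 as the deposited output's source, with mm10 per the submitters' processing notes. Other upstream settings are not given in the sources used here.

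The members and gene lists were chosen with earlier results of these data known. Mixed cells were matched to pure cells within 0.1 log2 units of total UMIs. UMI sums per class and library, without immunoglobulin genes, were tested with edgeR 4.0.16 (TMM scaling, filterByExpr, library as a block, adjusted p below 0.05), and with DESeq2 1.42.0 as an alternative. The block is the library itself, since mixed and pure cells were captured in the same libraries. The test was checked on simulated counts with a spread set in advance and no difference between libraries other than depth. That check does not cover the variation between these libraries or UMIs that sit in few cells. Named genes were those with the 12 largest and 12 smallest log2 fold changes per comparison among genes that passed, had the same sign in both libraries and reached 10 CPM in 1 class, and list members that passed. Some genes that this rule names or the lists hold are not reported here, though they enter the counts over lists and over all genes. The separating genes passed between unused pure cells with at least 20 CPM in 1 class and a log2 fold change of at least 0.5. Doublets were scored by Scrublet in scanpy 1.11.5 and not removed in the main analysis. Intervals are exact binomial (Clopper-Pearson) at 95% and cover counting error only. Coordinates and sequences come from GENCODE M21.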

Additional observations from a re-analysis of the deposited data

How the results depend on the processing

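The number of genes called varied with the model and with the cells admitted. Against pooled pure cells, 389 calls became 51 with DESeq2, 2 with no replicate block, 77 with cells thinned to 3000 UMIs, 76 and 679 at mitochondrial limits of 10% and 40%, 188 for mixed cells at 30% to 70%, 220 without the highest 6% of doublet scores and 83 with no UMI matching. The alternatives chosen after seeing the data gave 82 (without the highest 20% of UMIs) and 123 (without cells with resting genes). Against pure IgM cells, 948 became 250 (DESeq2), 4 (no replicate block), 230 (thinned), 121 and 1537 (limits of 10% and 40%), 415 (30% to 70%) and 320 (matched on mitochondrial share). Against pure IgG cells, 419 became 66, 5, 44, 29 (limit of 10%), 96 (30% to 70%), 186 (without the highest scores), 158 (without the highest 20% of UMIs) and 74 (without cells with resting genes). Leaving out 1 library leaves no residual degrees of freedom, so no count was made.

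The genes per cell difference of 1.5 was -0.5 and -2.5 at limits of 10% and 40%, -0.5 with no UMI matching, 6.0 without the highest 20% of UMIs and 10.5 when thinned to 2000 UMIs that were neither mitochondrial nor immunoglobulin, and 0 to 3.0 in single libraries. The mixed light chain difference of 1.37 points was -0.413 and 0.118 at limits of 10% and 40%, 2.61 when matched on mitochondrial share, 0.458 without cells with resting genes, 0.0600 with at least 50 light chain UMIs, and 0.891 to 1.85 in single libraries. The doublet score difference of 7.66 points was 1.98 at a limit of 10%, 10.03 with at least 20 heavy chain UMIs, 5.55 when matched on mitochondrial share, and 6.67 to 8.65 in single libraries. The mixed share of 15.8% was 14.7% and 17.0% at limits of 10% and 40%, 9.04% at 30% to 70%, 14.9% without the highest scores, 12.7% with heavy chain UMIs thinned to 10, and 15.3% to 16.4% in single libraries.

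Of 937 values of named genes that had an adjusted p under alternatives, 596 kept direction and call, 333 lost the call and 8 turned sign. Single libraries give no call and are not among them. Against pooled pure cells the values that turned sign were Serpinb1a (-0.16) and Sub1 (-0.23) without cells with resting genes, and Sub1 (-0.027) at 30% to 70%. Against pure IgM cells they were Klf2 (-0.060 without cells with resting genes, which Klf2 helps to define, and -0.079 thinned), and Plac8 (-0.12) and Ccnd2 (-0.30) without the highest 20% of UMIs, which against pure IgG cells also turned Batf (0.0033). The causes were not tested.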
